A study of Mus musculus with 15 samples.

Results

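Vav-iCre *Ezh2* deletion was compared with pooled wild type in erythro-myeloid progenitors (EMPs) of the mouse yolk sac at E10.5. The members are the 5 libraries titled Vav-Ezh2-KO against the 5 titled Tie2-Ezh2-WT (3) or Vav-Ezh2-WT (2), 10 of the 15 RNA-seq libraries in the series. Of the 17454 genes in the deposited table, the 13646 above 0.2 RPKM in at least 1 of these 10 libraries were tested, and 3808 were not. RPKM is a read number divided by exon length and by the size of the library.

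All embryos carried floxed *Ezh2* alleles (*Ezh2*fl/fl) on a C57BL/6 background. Vav-Ezh2-KO embryos also carried 1 copy of the Vav-iCre transgene (Vav-CreTg/+), which is active from the start of the hematopoietic stage, after cells have left the endothelium. WT embryos of both crosses carried no Cre. Cells were sorted as lineage-negative, SCA1-negative, KIT-positive, CD41-positive and CD16/32-positive, from single yolk sacs of either sex. The labels do not say in which experiment a library was made. Reads on genes ranged from 10407398 to 41025074 in WT (median 15811738) and from 11506895 to 28714656 in Vav-Ezh2-KO libraries (median 18418304). The transgene is present in every Vav-Ezh2-KO and in no WT embryo, so an effect of the transgene or its insertion and an effect of the deletion cannot be told apart.

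EZH2 is the main catalytic subunit of Polycomb repressive complex 2 (PRC2), which methylates lysine 27 of histone H3 and keeps developmental genes silent. EMPs arise from hemogenic endothelium of the yolk sac and give rise to the first definitive red cells, megakaryocytes and myeloid cells of the embryo. Loss of PRC2 is known best for reopening *Hox* genes, other developmental transcription factors and cell cycle inhibitors.

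The markers of the sort were expressed in both groups. For *Kit*, the receptor of stem cell factor, the WT mean was 28.6 ± 2.24 RPKM and the Vav-Ezh2-KO mean 25.2 ± 7.8 RPKM (SD, n = 5 each). *Itga2b*, which encodes CD41, was at 31.1 ± 6.38 and 28.1 ± 6.81 RPKM (SD, n = 5 each). *Fcgr3*, which encodes CD16, was at 124 ± 22.3 and 131 ± 37.7 RPKM (SD, n = 5 each). *Ptprc*, which encodes the pan-leukocyte protein CD45, ran from 6.71 to 13.4 RPKM and from 4.93 to 11.3 RPKM. The ranges of both groups overlapped for each of these 4 genes. *C1qa* of macrophages was at 0 in all 10 libraries, but other monocyte and macrophage genes were expressed. Of 38 listed, 30 were tested, *Csf1r* among them, and *Apoe*, the most abundant, had a mean of 423 RPKM over the 10 libraries.

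*Ezh2* was at 36.9, 39.5, 30.1, 42 and 41.5 RPKM in the WT libraries, given here and below in the order Tie2-Ezh2-WT replicates 4, 10 and 12, then Vav-Ezh2-WT replicates 4 and 6. In Vav-Ezh2-KO replicates 1, 9, 10, 26 and 28, the order used throughout, it was at 33.7, 42.4, 37.8, 38.1 and 34.0 RPKM. The groups overlapped, and the 95% interval of the log2 difference ran from -0.25 to 0.21. The floxed exon codes for part of the SET domain and the deposited value sums all exons, so the removal of the exon is not read directly. By quantitative PCR on the exon itself, the study reported that its expression was lost in Vav-Ezh2-KO and in Tie2-Ezh2-KO EMPs. The 5 Tie2-Ezh2-KO libraries, with the same exon floxed, ran from 24.8 to 29.5 RPKM, under all 5 WT libraries, with a log2 difference of -0.48. Of the 13 PRC2 core and accessory subunits listed, 12 were tested and 11 had an interval within a 2-fold change. *Rbbp4*, a histone-binding subunit shared with other complexes, was higher by 0.35 against all WT but stood at -0.01 against Vav-Ezh2-WT alone. *E130012A19Rik*, also called *Epop*, encodes an accessory subunit. It was at 0.660, 1.74, 0.816, 1.64 and 1.96 RPKM in WT and at 2.26, 1.54, 1.81, 2.39 and 3.75 RPKM in Vav-Ezh2-KO EMPs. Its log2 difference was 0.74, with overlapping groups and an adjusted p = 0.607 in limma, with 3 of 5 Vav-Ezh2-KO libraries above all WT. The other core subunits *Eed* and *Suz12* had differences of -0.16 and -0.20, and *Ezh1*, the second methyltransferase, of -0.20, each with an interval that spans 0.

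Differences were fitted with limma on log2(RPKM + 0.2), and a gene was called at an adjusted p under 0.05 over all 13646 genes. By this rule 1 gene was called, 0.00733% of those tested, and limma-voom on the recovered reads called 0. Without adjustment, p was under 0.05 for 546 genes (4%) with higher and 536 (3.93%) with lower levels in Vav-Ezh2-KO EMPs. In 82 genes (0.601%) every Vav-Ezh2-KO library was above every WT library, and in 110 (0.806%) every one was below. The balance of directions depended on the scale. With all libraries brought to the same median, 769 were higher and 289 lower at that p, and with quantile normalization 563 and 533. The median difference of all genes was -0.02 as deposited, 0.03 after common-median scaling and 0.00 after quantile normalization. The next gene would have needed an unadjusted p of 7.33e-06 to be called.

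The design excluded large changes for most genes. The 95% interval lay within a 2-fold change for 10959 genes (80.3%) and within a 1.5-fold change for 6137 (45%). Both counts depended on the pseudocount, with 13299 and 10811 genes at a pseudocount of 1 and 9018 and 5895 at 0.05. Against Vav-Ezh2-WT alone 8555 genes were held within 2-fold, and with limma-voom 8856. A 2-fold rise was outside the interval for 12229 genes (89.6%) and a 2-fold fall for 12264 (89.9%). Among the 6812 genes with a mean of at least 5 RPKM, 6652 (97.7%) were held within 2-fold, and 160 were not. Below 5 RPKM, 4307 of 6834 genes (63.0%) were held within 2-fold, so most of the change that remains possible lies in weakly expressed genes. The median width to either side of the estimate fell with the level of the gene, from 0.70 on the log2 scale under 1 RPKM to 0.20 at 100 RPKM and over. To be called, a gene of median spread needed a 4.67-fold difference under 1 RPKM, 2.18-fold at 5 to 20 RPKM and 1.57-fold at 100 RPKM and over. These folds, and the 2-fold and 1.5-fold limits, are of RPKM + 0.2. Under 1 RPKM the same fold stands for a larger fold of RPKM itself. These intervals come from the spread between libraries, each from 1 yolk sac.

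**Figure D1:**
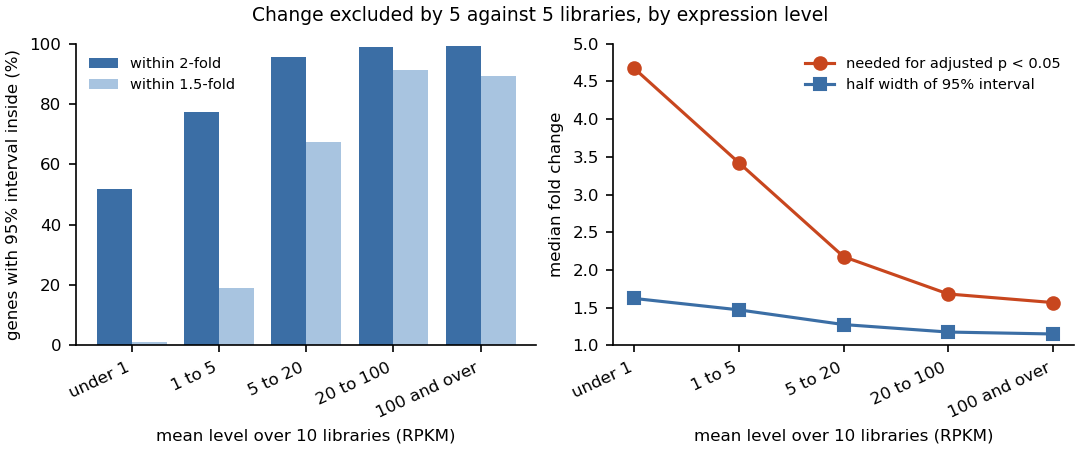
Left, share of genes in each class of mean RPKM whose 95% interval of the Vav-Ezh2-KO minus WT difference lay within 2-fold or 1.5-fold. Right, median fold change needed for a call and median width of the interval to 1 side. The share within 2-fold rises from 52.0% of 3871 genes under 1 RPKM to 99.4% of 1277 genes at 100 RPKM and over.

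Derepression of silent genes was looked for directly. In all, 4354 genes of the table were at or under 0.2 RPKM in all 5 WT libraries. Of these, 1 had a mean of at least 1 RPKM in Vav-Ezh2-KO EMPs, against 14 in Tie2-Ezh2-KO EMPs, in which the Cre is active from the endothelial stage. Above 0.2 RPKM in all 5 libraries were 2 of the genes in Vav-Ezh2-KO and 45 in Tie2-Ezh2-KO EMPs. The 2 genes are *Sva* and *4933411E08Rik*, the latter between 0.270 and 0.905 RPKM, and both were picked out after their values were seen. Conversely, 4442 genes were at or under 0.2 RPKM in all 5 Vav-Ezh2-KO libraries, and none of them was above 0.2 RPKM in all 5 WT libraries. For 4 of them the WT mean reached 1 RPKM, and these were picked out for that. *Ccl2* and *Ccl5*, which encode chemokines, each had all their WT signal in 1 library, at 5.73 RPKM in Tie2-Ezh2-WT replicate 10 and 12.4 RPKM in Vav-Ezh2-WT replicate 6. *Apoa4*, an apolipoprotein gene, was at 7.79 RPKM in Tie2-Ezh2-WT replicate 4, and *Snord91a*, a small nucleolar RNA gene, was at 0 in 2 of the 5 WT libraries.

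The called gene was *Sva*, which encodes a secreted protein of the seminal vesicle and lies on chromosome 6 of GRCm38 from 42038394 to 42042851. It was at 0 RPKM in all 5 WT and all 5 Tie2-Ezh2-KO libraries, and at 3.43, 4.5, 1.37, 3.20 and 2.09 RPKM in the Vav-Ezh2-KO libraries. The groups stood apart in all 10 libraries. Over the 651 exon bases of its GENCODE annotation the signal was 63, 54, 15, 24 and 39 reads. The steps between RPKM values fit a length of 217 bases as well, with 21, 18, 5, 8 and 13 reads, and the deposited values cannot tell these apart. With 3 reads over all WT libraries as the floor, the mean of 2.92 ± 1.22 RPKM (SD, n = 5) was at least 64.6-fold higher than in WT with the annotated length and 21.5-fold with the shorter one. This floor covers counting error only, since PCR reads without molecular identifiers are not independent molecules. *Sva* rose in 5 of 5 libraries with a fitted log2 difference of 3.86 and an adjusted p = 3.72e-05 in limma, and it was called in 23 of 24 alternatives, with adjusted p from 2.19e-07 to 0.247. The exception was limma-voom, which differs in its model and was run on the lower read numbers only. Which of these ended the call was not tested. *Sva* and *Ezh2* lie on the same chromosome, with 5487423 bases between them. Of the expressed genes within 1 Mb, *Gstk1*, which encodes a mitochondrial glutathione transferase, was at 3.20, 3.20, 6.34, 3.61 and 3.72 RPKM in WT and at 4.76, 8.87, 9.82, 5.23 and 7.04 RPKM in Vav-Ezh2-KO EMPs. It was picked out by position and for the smallest unadjusted p among the neighbours of *Sva*. Its groups overlapped through Tie2-Ezh2-WT replicate 12, and it was not called. *Zyx*, a focal adhesion gene at 169 and 170 RPKM, and *Casp2*, a caspase gene at 33.7 and 31.2 RPKM, had differences of 0.02 and -0.12.

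*Commd10* encodes an endosomal sorting protein, lies on chromosome 18 from 46958819 to 47087995, and is listed in the gene table with the Vav-iCre transgene among its synonyms. It was at 30.3, 24.5, 35.9, 29.7 and 25.8 RPKM in WT and at 44.9, 49.2, 48.1, 42.3 and 41.9 RPKM in Vav-Ezh2-KO EMPs. Every Vav-Ezh2-KO library was above every WT library, while the 5 Tie2-Ezh2-KO libraries, without this transgene, had a mean of 32.9 RPKM. The log2 difference was 0.64 with an adjusted p = 0.13 in limma, higher in 5 of 5 libraries, and the exact permutation p was 0.00794, the smallest that 5 against 5 libraries can give. Without Tie2-Ezh2-WT replicate 12, *Commd10* was called with an adjusted p = 0.0442, and over all alternatives the adjusted p ran from 0.0442 to 0.514. Every other gene tested within 1 Mb had overlapping groups. Of these, *Pggt1b*, a prenyltransferase gene, and *Ap3s1*, which acts in vesicle transport, had the smallest unadjusted p, with log2 differences of -0.36 and 0.30, and neither was called. *Vav1*, whose promoter drives the transgene, had means of 33 ± 3.53 and 28.8 ± 3.99 RPKM (SD, n = 5 each) in WT and Vav-Ezh2-KO EMPs, with overlap.

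Several genes had no overlap between the groups without passing the adjustment over all genes. Among those lower in Vav-Ezh2-KO EMPs, *Mycn*, a transcription factor gene of the Myc family with a role in progenitor growth, was at 17.3, 11.7, 11.7, 10 and 18.8 RPKM in WT. The Vav-Ezh2-KO libraries had 4.17, 5.02, 3.59, 7.03 and 6.83 RPKM, so the highest knockout library lay under the lowest WT library. Its log2 difference was -1.36 (95% interval -1.83 to -0.89) and -1.38 against Vav-Ezh2-WT alone, with an adjusted p = 0.13 in limma, lower in 5 of 5 libraries. In Tie2-Ezh2-KO EMPs its mean was 15.2 RPKM, near that of WT. *Myc* itself was at 208 ± 25.3 and 172 ± 14.4 RPKM (SD, n = 5 each), with overlapping groups.

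*Gimap6* encodes a GTPase of immune-associated protein family, tied to autophagy and lymphocyte survival. It was at 54.8, 39.3, 59, 31.4 and 59.2 RPKM in WT and at 22.3, 22.4, 23.2, 30.6 and 26.9 RPKM in Vav-Ezh2-KO EMPs. The gap between the groups was narrow, between Vav-Ezh2-WT replicate 4 and Vav-Ezh2-KO replicate 26. Its log2 difference was -0.92 with an adjusted p = 0.203 in limma, lower in 5 of 5 libraries, and it was called only without Vav-Ezh2-WT replicate 4, with an adjusted p = 0.025 within a range of 0.025 to 0.862 over the alternatives. *Dlk1*, an imprinted gene for a Notch-like membrane protein, was at 11.8, 9.69, 8.32, 5.00 and 15.8 RPKM in WT. The Vav-Ezh2-KO libraries had 1.47, 0.135, 2.69, 3.13 and 3.49 RPKM, all under the WT libraries, while its mean in Tie2-Ezh2-KO EMPs was 13.8 RPKM. The log2 difference of -2.41 had an adjusted p = 0.434 in limma, lower in 5 of 5 libraries.

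The other genes with the smallest p among those lower without overlap had smaller differences. *Dok2*, an adaptor that restrains tyrosine kinase signals, was at 108 ± 16.3 and 74.6 ± 4.93 RPKM (SD, n = 5 each), a log2 difference of -0.52. *Hspa5*, the main chaperone of the endoplasmic reticulum, was at 757 ± 49.3 and 584 ± 79.1 RPKM (SD, n = 5 each), a difference of -0.38, and *Ccdc47*, a partner of the translocon there, differed by -0.41. *Rbm5*, a splicing factor gene, *Fam83d*, a spindle gene, and *Myg1*, a nuclease gene, differed by -0.51, -0.75 and -0.34. *BC064078* differed by -1.46 at a WT mean of 1.16 RPKM. *Id2*, an inhibitor of helix-loop-helix factors, differed by -1.13, a value that rests in part on 9.06 RPKM in Tie2-Ezh2-WT replicate 4, where the other 4 WT libraries were between 1.53 and 3.33 RPKM.

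Among genes higher without overlap, *Bex4*, of a family of small brain-expressed X-linked proteins, was at 33.5, 37.9, 45.9, 34.3 and 38.0 RPKM in WT. The Vav-Ezh2-KO libraries had 55.5, 77.9, 70.8, 50.3 and 66.4 RPKM, each above the highest WT library. The log2 difference was 0.75 with an adjusted p = 0.13 in limma, higher in 5 of 5 libraries, and the mean in Tie2-Ezh2-KO EMPs was 51.5 RPKM. *Btf3*, a subunit of the complex that binds nascent proteins at the ribosome, was at 348 ± 23 and 455 ± 40.7 RPKM (SD, n = 5 each), a log2 difference of 0.39. *Chchd10* of the mitochondrial intermembrane space, *Tmem9* of lysosomes and *Anxa4*, an annexin gene, differed by 0.47, 0.39 and 0.64. *Tspan15*, a tetraspanin gene, differed by 0.75, and *Gm561* and *Gm15421* by 0.76 and 0.57. Among the largest differences upward were *Gstt1*, a glutathione transferase gene (1.39), *3830403N18Rik* (1.01), *Dusp10*, a phosphatase of stress kinases (0.99), and *Fuom*, a fucose mutarotase gene (0.83). None of these genes was called.

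**Figure D2:**
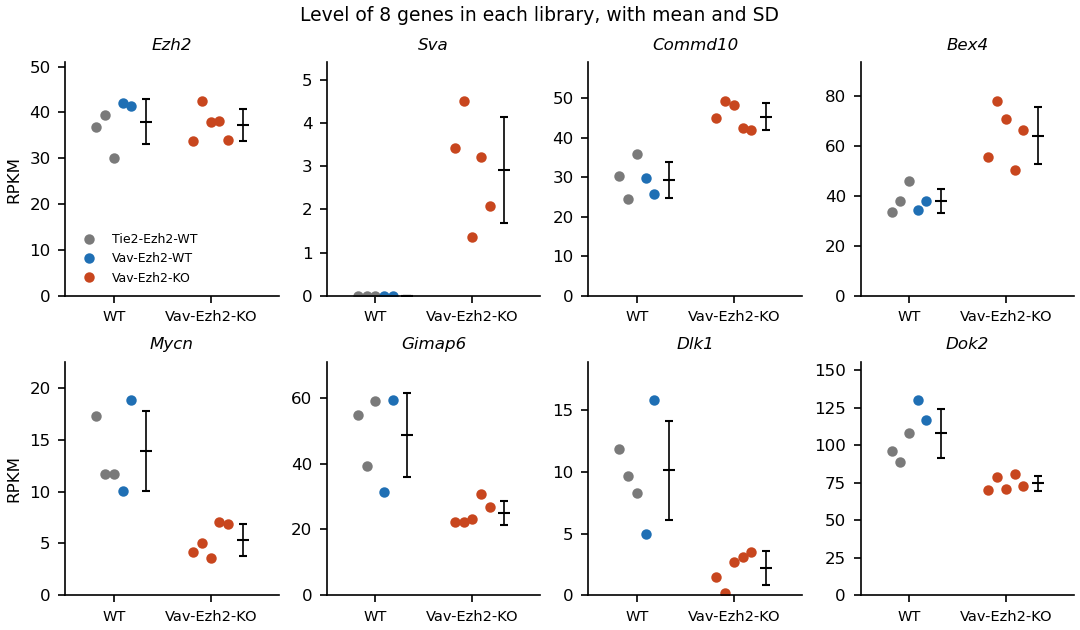
RPKM of *Ezh2* and 7 genes in each of the 5 WT and 5 Vav-Ezh2-KO libraries, with mean and SD beside the points. *Sva* is at 0 in every WT library, *Commd10* and *Bex4* are higher, and *Mycn*, *Gimap6*, *Dlk1* and *Dok2* lower, in every Vav-Ezh2-KO library, and *Ezh2* overlaps.

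Only 5 genes had an interval wholly beyond a 2-fold change, and they were picked out for it. They are *Sva*, *Dlk1*, *Gfi1*, *Mir93* and *BC100530*. *Gfi1*, a repressor that ends the endothelial program and guides granulocyte fate, was at 0.186, 0.448, 0.847, 0.454 and 1.03 RPKM in WT and at 0.0342, 0, 0.0573, 0 and 0.0448 RPKM in Vav-Ezh2-KO EMPs. Every Vav-Ezh2-KO library lay under every WT library, at levels near the limit of detection, with a log2 difference of -1.70 and an adjusted p = 0.203 in limma, lower in 5 of 5 libraries. *Mir93*, a microRNA locus within the *Mcm7* gene, was at 0 in all 5 Vav-Ezh2-KO libraries and in Tie2-Ezh2-WT replicate 10, and at up to 1.14 RPKM in the other WT libraries. Without that WT library it was called. *BC100530*, of the stefin A gene cluster, reached 21.8 and 13.1 RPKM in replicates 1 and 9 of the knockout and between 1.35 and 4.58 RPKM in the other 3, against a WT mean of 1.05 RPKM.

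Small shifts by family were described with lists of genes, each by its number of members tested, its counts at an unadjusted p under 0.05 and its median log2 difference. Over all genes these were 546 higher, 536 lower and a median of -0.02, and 25% of genes lay below -0.16 and 25% above 0.15. At any p, 47.1% of all genes were higher. Among the 1277 genes at 100 RPKM and over, 60.8% were higher, with 169 higher and 51 lower at an unadjusted p under 0.05. Counts given as a range, and the range in parentheses after a median, span the fit reported and its 24 alternatives, which include leaving out each library and taking either cross as the only control. No p was computed for a list.

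Proteins of the cytoplasmic ribosome were shifted as a group. All 77 genes tested were higher in Vav-Ezh2-KO EMPs, 56 of them at an unadjusted p under 0.05 and 0 lower, and 9 had no overlap. None was called. Over all genes, 0.601% had every Vav-Ezh2-KO library above every WT library. The median log2 difference was 0.35 as deposited, 0.20 after quantile normalization, 0.41 after common-median scaling and 0.24 against Vav-Ezh2-WT alone. For 76 of the 77 genes the interval lay within 2-fold. The summed level was 42061, 48656, 55922, 54616 and 53272 RPKM in WT and 57652, 58795, 66339, 54362 and 80508 RPKM in Vav-Ezh2-KO EMPs, 24.8% higher on average. Vav-Ezh2-KO replicate 28 was the highest, and replicate 26 lay within the WT range. Without replicate 28 the median was 0.25, and 34 genes instead of 56 were higher at an unadjusted p under 0.05. That count was 4 against Vav-Ezh2-WT alone and 32 without Tie2-Ezh2-WT replicate 4. *Rpl39* and *Rps12*, which had the smallest p of the list, encode proteins of the large and the small subunit. *Rpl39* was at 296, 303, 342, 372 and 344 RPKM in WT and at 432, 523, 488, 407 and 852 RPKM in Vav-Ezh2-KO EMPs. Its groups did not overlap, and replicate 28 stood far above the other 4.

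Length moved with this result. Among genes of at least 5 RPKM outside the lists of ribosomal proteins of the cytoplasm and mitochondria and of oxidative phosphorylation, the 235 with 700 exon bases or less had a median of 0.23, and 86.0% were higher. For the 1128 genes with over 4000 bases the median was -0.08, and 30.3% were higher. The short class was at 0.50 in Vav-Ezh2-KO replicate 28, 0.30 in replicate 10, 0.23 in replicate 9, 0.16 in replicate 1 and 0.01 in replicate 26, as a median difference from the WT mean. In WT libraries it ran from -0.18 in Tie2-Ezh2-WT replicate 4 to 0.16 in Tie2-Ezh2-WT replicate 12. Ribosomal protein genes of 700 bases or less had a median of 0.39, above the 0.23 of other genes of this length. In the next class, up to 1000 bases, they were at 0.28, against 0.10 for other genes. Against Vav-Ezh2-WT alone the gaps were smaller, with 0.30 against 0.21 in the first class and 0.16 against 0.11 in the next. With the trend over exon length removed from each library, an alternative chosen after the data were seen, the median of ribosomal protein genes was 0.20 and 39 were higher at an unadjusted p under 0.05. The part of RNA fragment length or of library preparation in this shift was not tested.

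Genes of oxidative phosphorylation encoded in the nucleus had a like but smaller difference. Of 77 tested, 72 were higher, 24 of them at an unadjusted p under 0.05 and 0 to 2 lower at that p, with a median of 0.22 as deposited, 0.12 after quantile normalization and 0.27 after common-median scaling. With the length trend removed the median was 0.07 and 8 genes were higher at that p. The count of 24 was 10 against Vav-Ezh2-WT alone and 13 without Tie2-Ezh2-WT replicate 4 or Vav-Ezh2-KO replicate 10 or 28. It was 45 without Tie2-Ezh2-WT replicate 12 and 42 without Vav-Ezh2-KO replicate 26. The median was 0.14 without Vav-Ezh2-KO replicate 28. All 77 intervals lay within 2-fold, and 59 within 1.5-fold. *Atp5g2*, of the rotor ring of ATP synthase, was at 183 ± 25 and 251 ± 40.7 RPKM, and *Ndufb3* of complex I at 155 ± 15 and 204 ± 37.1 RPKM (SD, n = 5 each). Proteins of the mitochondrial ribosome, 76 tested, had a median of 0.08 (0.00 to 0.13), and 0.00 with the length trend removed. The number higher was 3 with all libraries and 8 after common-median scaling, and 1 library moved it. It was 0 without Tie2-Ezh2-WT replicate 4, 1 without Tie2-Ezh2-WT replicate 10 or Vav-Ezh2-KO replicate 9 or 10, 5 without Vav-Ezh2-WT replicate 4, 10 without Tie2-Ezh2-WT replicate 12 and 16 without Vav-Ezh2-KO replicate 26, with 0 to 4 lower.

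Aminoacyl-tRNA synthetases, which charge tRNAs with amino acids, lay on the other side. Of the 20 tested, 17 were lower, 6 at an unadjusted p under 0.05 with 0 to 1 higher, and 3 had no overlap, with none called. Over all genes, 0.806% had every Vav-Ezh2-KO library below every WT library. The median was -0.13 as deposited and after quantile normalization, -0.08 after common-median scaling, and -0.17 against Vav-Ezh2-WT alone. Their summed level was 2427, 2365, 2445, 2366 and 2461 RPKM in WT and 2237, 2187, 2247, 2299 and 2212 RPKM in Vav-Ezh2-KO EMPs. The groups did not overlap, with a difference in means of -7.31%. The 5 Tie2-Ezh2-KO libraries ran from 2213 to 2529 RPKM. *Tars*, *Cars* and *Lars*, which charge threonine, cysteine and leucine, had log2 differences of -0.19, -0.20 and -0.24. For 19 of the 20 genes the interval excluded a 1.5-fold change. The number lower at an unadjusted p under 0.05 was 2 without trend in eBayes, 0 after common-median scaling, 0 with the length trend removed, 1 against Vav-Ezh2-WT alone, 2 without Vav-Ezh2-KO replicate 9 and 3 without Tie2-Ezh2-WT replicate 10 or 12 or Vav-Ezh2-KO replicate 10.

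Ribosome biogenesis factors, 59 tested, had 0 to 4 higher and 11 lower at an unadjusted p under 0.05 and a median of -0.06 (-0.09 to -0.01), or -0.01 after common-median scaling. The number lower was 4 without Vav-Ezh2-WT replicate 6, 5 without Tie2-Ezh2-WT replicate 10 or Vav-Ezh2-KO replicate 9, 6 without Vav-Ezh2-KO replicate 10 and 7 without Vav-Ezh2-KO replicate 28. It was 4 after common-median scaling, 5 with the length trend removed and 2 against Vav-Ezh2-WT alone. With that trend removed the median of the list was -0.03. Its genes had a median of 2702 exon bases, and all genes of at least 5 RPKM with 2001 to 3000 bases had a median difference of -0.06. *Wdr43* and *Nop56*, which process the small subunit RNA and guide its methylation, were at 215 ± 28.1 and 171 ± 14.4 RPKM and at 485 ± 47.3 and 402 ± 21.6 RPKM (SD, n = 5 each). *Npm1*, the most abundant of the list, encodes a nucleolar chaperone and was at 1570 ± 110 and 1798 ± 109 RPKM (SD, n = 5 each). Translation factors, 45 tested, had 0 to 7 higher and 0 to 3 lower, with a median of 0.03 (-0.03 to 0.09) that was -0.03 after quantile normalization. Spliceosome genes, 50 tested, had 7 higher and 0 to 2 lower and a median of 0.03 (-0.03 to 0.09), with the short core genes *Snrpe* and *Snrpg* at 0.39 and 0.48, and 4 were higher without Tie2-Ezh2-WT replicate 4. Against Vav-Ezh2-WT alone 2 were higher and the median was -0.03, and without Vav-Ezh2-KO replicate 28 it was 0.00. Of 34 proteasome subunits, 0 to 3 were higher and 0 to 6 lower, the 6 after quantile normalization. All 34 had intervals within 1.5-fold, with a median of 0.04 (-0.07 to 0.09) that was -0.07 after quantile normalization. Genes of the unfolded protein response and targets of ATF4, 39 tested, had 0 to 4 higher and 2 to 6 lower, and the 3 with all libraries were *Hspa5*, *Xbp1* and *Creld2*. *Xbp1* and *Creld2*, a central factor of the response and a folding protein it induces, had log2 differences of -0.31 and -0.26. The median of the list was -0.05 (-0.11 to 0.01) as deposited and 0.01 after common-median scaling. Heat shock and chaperone genes, 31 tested, had 0 to 5 higher and 1 to 7 lower and a median of 0.01 (-0.08 to 0.07). After quantile normalization 3 were higher and 7 lower and the median was -0.08.

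**Figure D3:**
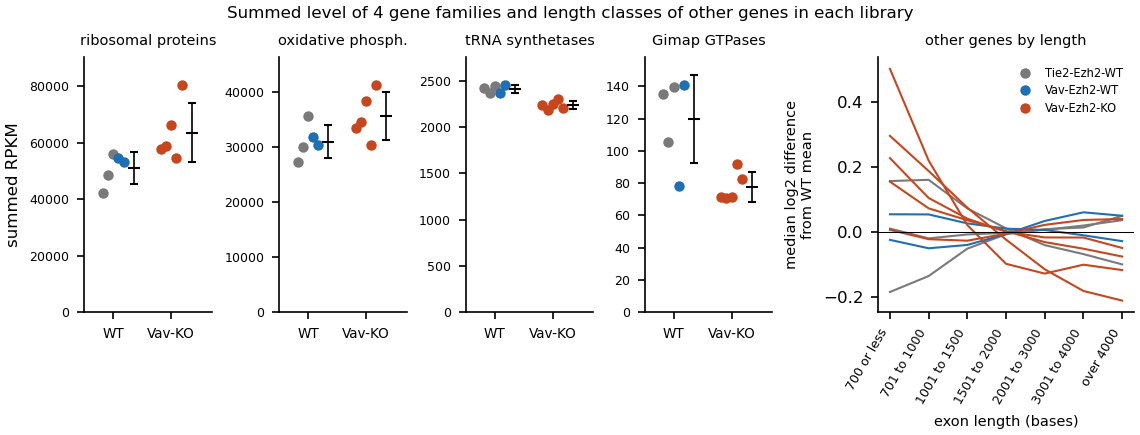
Summed RPKM of 4 families in each library, with mean and SD, and, at the right, the median log2 difference from the WT mean of other genes of at least 5 RPKM by exon length, 1 line per library. Sums of aminoacyl-tRNA synthetases do not overlap between the groups, and the class of 700 bases or less is highest at 0.50 in Vav-Ezh2-KO replicate 28.

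Promoters of ribosomal protein genes often start in a run of pyrimidines, so the hexamer CTTTCC was searched on both strands within 20 bases before to 20 bases after the annotated start, in RefSeq sequences of build GRCm38.p6. It was present in 9 of 56 ribosomal protein promoters (16.1%), all on the strand of the gene, out of the 77 genes tested. Of all 27025 promoters, 955 (3.53%) held it on either strand, 1.9% on the strand of the gene. Other short genes of at least 5 RPKM held it in 7 of 163 (4.29%), oxidative phosphorylation genes in 1 of 65 and mitochondrial ribosomal protein genes in 1 of 67, aminoacyl-tRNA synthetases in 1 of 13 (7.69%) and *Gimap* genes in 1 of 8 (12.5%). The 4 ribosomal protein genes with the smallest p among those with the match within 15 bases of the start are shown to let the shared element be read, from 15 bases before to 15 bases after the start, with the match in capitals. They lie at chr7:45718056-45718085 on the plus strand, chr7:4792950-4792979 on the plus strand, chr17:27635230-27635259 on the minus strand and chr14:18270972-18271001 on the minus strand, in this order.
Rpl18: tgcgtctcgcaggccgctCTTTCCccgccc
Rpl28: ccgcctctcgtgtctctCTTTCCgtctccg
Rps10: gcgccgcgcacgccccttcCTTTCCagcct
Rpl15: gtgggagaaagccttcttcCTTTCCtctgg
Their log2 differences were 0.31 for *Rpl18*, 0.37 for *Rpl28*, 0.39 for *Rps10* and 0.22 for *Rpl15*, within the range of the list. A match is a description of these letters and not of a bound factor.

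Families known as targets of PRC2 were read by the same counts. Of 39 *Hox* genes listed, 9 were tested, 0 were higher and 1 was lower at an unadjusted p under 0.05. The median was -0.25 (-1.61 to -0.07), or -0.14 without Vav-Ezh2-WT replicate 6. The end of -1.61 is the fit limited to a mean above 1 RPKM, where it equals the difference of *Hoxa9* alone. Of the 9 genes, 7 were under 1 RPKM in all 10 libraries, and the median level was 0.07 RPKM, so the list median lies near the floor. *Hoxa9*, the most abundant and a regulator of progenitor renewal, was at 2.79, 1.20, 3.81, 0.946 and 2.47 RPKM in WT and at 0.125, 0, 1.62, 1.03 and 1.13 RPKM in Vav-Ezh2-KO EMPs. Its groups overlapped through Tie2-Ezh2-WT replicate 10 and Vav-Ezh2-WT replicate 4, and it was not called, with a log2 difference of -1.61. Of the other developmental transcription factor genes listed, 8 were tested, with 0 higher and 1 lower (*Sox18*). The sum over all listed genes of this family with deposited values, tested or not, ran from 3.10 to 10.2 RPKM in WT. This sum ran from 3.33 to 5.88 RPKM in Vav-Ezh2-KO and from 17.5 to 25.8 RPKM in Tie2-Ezh2-KO EMPs. Of 7 inhibitors of cyclin-dependent kinases, 5 were tested, with 0 to 1 higher and 0 to 1 lower at that p. *Cdkn2a*, a classic PRC2 target that blocks the cell cycle, was at 0 RPKM in all 10 libraries and at a mean of 0.251 RPKM in Tie2-Ezh2-KO EMPs. *Cdkn1c*, an imprinted inhibitor, was at 2.30 ± 1.55 and 0.910 ± 0.487 RPKM (SD, n = 5 each).

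Imprinted genes, 40 tested, had 0 to 1 higher and 2 to 5 lower, and the 3 with all libraries were *Dlk1*, *H19* and *Peg12*, with a median of -0.12 (-0.18 to -0.06), or -0.08 without Vav-Ezh2-KO replicate 1. *H19*, a noncoding RNA gene, was at 1.69, 1.74, 2.95, 1.16 and 2.51 RPKM in WT and at 0.271, 0.623, 0.749, 1.30 and 0.959 RPKM in Vav-Ezh2-KO EMPs, overlapping in 1 library. *Peg12*, a paternally expressed gene, differed by -0.61. PRC1 subunits, 23 tested, had 0 to 1 higher and 0 to 4 lower, 0 of them against Vav-Ezh2-WT alone, and a median of -0.02 (-0.07 to 0.06) that was 0.03 after common-median scaling and 0.01 after quantile normalization. The 3 with all libraries were *Pcgf6*, *Cbx8* and *Cbx7*, which encode a ring-finger partner and chromobox readers, at -0.26, -0.55 and -0.69. Demethylases of lysine 27 with trithorax genes (17 tested) had 0 to 1 higher and 0 to 3 lower, and DNA methylation and Tet enzymes (12 tested) had 0 higher and 0 to 1 lower, with medians of -0.02 (-0.14 to 0.06), which was 0.02 after common-median scaling, and -0.10 (-0.16 to -0.04). The latter was -0.04 without Tie2-Ezh2-WT replicate 4 and -0.05 without Vav-Ezh2-KO replicate 10 or 28.

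Transcription factors of hematopoiesis, 36 tested, had 0 to 2 higher and 2 to 7 lower at an unadjusted p under 0.05 and a median of -0.10 (-0.18 to 0.00), which was 0.00 without Vav-Ezh2-KO replicate 10. The intervals of 29 lay within 2-fold. Lower with all libraries were *Mycn*, *Gfi1*, *Myc*, *Hlf* and *Mecom*, the last 2 being regulators of stem cells that were under 1 RPKM in every library of both groups. *Gata2*, which maintains progenitors, was at 47.4, 76.2, 54.5, 61.2 and 44.6 RPKM in WT and at 90.4, 83.7, 52.4, 73.5 and 95.6 RPKM in Vav-Ezh2-KO EMPs. The groups overlapped through replicates 10 and 26, and the log2 difference was 0.47 (adjusted p = 0.544 in limma, with 3 of 5 libraries above all WT). *Runx1*, *Gata1* and *Sfpi1*, which set the hematopoietic, erythroid and myeloid programs, had intervals from -0.37 to 0.31, -0.05 to 0.32 and -0.44 to 0.14.

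Genes of quiescence and stem cells, 25 tested, had 0 to 2 higher and 2 to 7 lower and a median of -0.23 (-0.30 to -0.10), or -0.14 without Vav-Ezh2-WT replicate 6, and 21 of 25 were lower. Of the 33 EMP surface markers and cytokine receptors listed, 32 were tested, with 0 to 2 higher and 1 to 3 lower. With all libraries the 1 lower was the stem and progenitor marker *Cd34*. It was at 144, 136, 142, 134 and 213 RPKM in WT and at 105, 68.4, 125, 141 and 95.9 RPKM in Vav-Ezh2-KO EMPs, so that only replicate 26 reached the WT range, and the log2 difference was -0.54. All 8 *Gimap* GTPase genes were tested, with 0 higher and 4 lower and a median of -0.43 (-0.74 to -0.35). Their summed level was 135, 105, 139, 78.5 and 141 RPKM in WT and 71.3, 70.8, 71.4, 92.0 and 82.6 RPKM in Vav-Ezh2-KO EMPs, a difference of -35.2%. The groups overlapped through Vav-Ezh2-WT replicate 4. The genes lower were *Gimap6*, *Gimap5*, *Gimap1* and *Gimap4*, and the count was 2 against Vav-Ezh2-WT alone, after common-median scaling, and without Tie2-Ezh2-WT replicate 4 or 12, Vav-Ezh2-WT replicate 6 or Vav-Ezh2-KO replicate 1. In these bulk samples, fewer cells of a type and less RNA per cell cannot be told apart.

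Erythroid regulators and membrane genes, 31 tested, had 2 to 4 higher and 0 to 2 lower and a median of 0.02 (-0.09 to 0.07), which was -0.08 without Vav-Ezh2-KO replicate 26. The 3 higher with all libraries were *Mt2* and *Mt1*, metallothionein genes at 1.21 and 0.56, and *Tmod1*, a cytoskeletal gene at 0.58. Of 5 globin genes tested, 0 to 1 were higher and 0 lower, and *Hbb-bh1*, the embryonic globin most abundant here, was at 114 ± 32.1 and 108 ± 39.7 RPKM (SD, n = 5 each). Among 15 genes of heme synthesis, 0 to 2 were lower and 0 to 2 higher, and the 1 higher with all libraries was *Tmem14c*, a transporter of heme precursors, at 380 ± 30.9 and 454 ± 45.9 RPKM (SD, n = 5 each). Megakaryocyte and platelet genes, 31 tested, had 0 to 3 higher and 0 to 3 lower and a median of 0.09 (-0.07 to 0.20), which was -0.07 against Tie2-Ezh2-WT alone and -0.04 without Vav-Ezh2-KO replicate 9. *Pf4*, their chemokine, ran from 7.71 to 166 RPKM in WT and from 23.5 to 120 RPKM in Vav-Ezh2-KO EMPs, so its spread within a group exceeded any difference between them.

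Genes of neutrophil granules, 20 tested, had 2 to 5 higher and 0 to 3 lower and a median of -0.15 (-0.38 to 0.01), which was -0.01 without Vav-Ezh2-KO replicate 10. *Cst7*, an inhibitor of cathepsins, was at 17.3, 26.7, 28.8, 26.3 and 25.7 RPKM in WT and at 33.2, 66.7, 30.3, 39.7 and 40.3 RPKM in Vav-Ezh2-KO EMPs, with no overlap. *Nkg7*, a granule membrane gene, differed by 0.70, and *Mpo*, the myeloperoxidase gene and most abundant of the list, by -0.03. Monocyte and macrophage genes, 30 tested, had 1 to 3 higher and 1 to 4 lower and a median of 0.14 (-0.13 to 0.26), which was -0.13 against Vav-Ezh2-WT alone and -0.12 without Tie2-Ezh2-WT replicate 12. *Ly96*, a coreceptor of endotoxin, was at 4.63 ± 1.40 and 6.97 ± 0.435 RPKM (SD, n = 5 each) with no overlap, and *Ly86*, a related coreceptor, differed by 1.6. *Ms4a6d*, a membrane gene of monocytes, was the 1 lower with all libraries, at -0.60. *Csf1r*, the receptor that defines macrophages, was at 4.58 ± 2.63 and 4.62 ± 2.15 RPKM (SD, n = 5 each). Lymphoid priming genes (16 tested) and mast cell genes (10 tested) had 0 to 1 higher and 1 to 2 lower, and 0 to 2 higher and 0 lower. The mast cell chymase gene *Cma1* was at 0 in 8 of the 10 libraries.

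Endothelial identity genes, 33 tested, had 0 to 1 higher and 3 to 8 lower and a median of -0.15 (-0.34 to -0.04), which was -0.04 without Vav-Ezh2-WT replicate 6. *Ecscr*, a surface regulator of endothelial migration, was at 4.87 ± 2.07 and 2.04 ± 1.29 RPKM (SD, n = 5 each), and *Sox18*, a vascular transcription factor gene, at 2.43 ± 1.61 and 0.775 ± 0.778 RPKM. *Icam2*, an adhesion molecule shared with leukocytes, was the 1 higher, at 51.9 ± 6.47 and 63.7 ± 4.79 RPKM with no overlap. The defining endothelial genes *Cdh5* and *Kdr* were at 0.211 ± 0.120 and 0.140 ± 0.127 RPKM and at 1.15 ± 0.579 and 1.10 ± 0.297 RPKM. Visceral endoderm genes, 26 tested, had a median of -0.64 (-0.81 to -0.10), with 0 to 2 higher and 1 to 2 lower at an unadjusted p under 0.05 (*Epcam* and *Trf* with all libraries). The value rests on Tie2-Ezh2-WT replicate 4, in which *Afp*, *Apoa1* and *Ttr*, carrier proteins of the yolk sac endoderm, were at 48.2, 47.6 and 13.5 RPKM. In the other 9 libraries none of these 3 genes exceeded 2.09 RPKM, and without that library the median of the list was -0.10. Mesenchyme genes (13 tested) had 0 to 1 higher and 0 to 1 lower, collagen genes (4 tested) had 0 to 1 higher and 0 to 1 lower, and *Col1a1* did not exceed 0.0858 RPKM.

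Signaling lists had few members past an unadjusted p under 0.05. Notch receptors, ligands and targets, 23 tested, had 0 higher and 1 to 3 lower and a median of -0.11 (-0.15 to -0.04), which was -0.04 without Tie2-Ezh2-WT replicate 10. *Psen2*, a subunit of the protease that releases active Notch, was at 24.1 ± 2.22 and 19.0 ± 0.969 RPKM with no overlap, and *Mfng*, which modifies Notch with sugars, at 53.5 ± 8.13 and 43.1 ± 7.35 RPKM (SD, n = 5 each). Wnt ligands, receptors and modulators, 28 tested, had 0 to 1 higher and 0 to 3 lower, the latter being the receptor *Fzd9* and the secreted modulator *Sfrp2* with all libraries, and a median of -0.09 (-0.14 to -0.02), or -0.02 without Tie2-Ezh2-WT replicate 4. Transducers and targets of Wnt, 28 tested, had 0 to 1 higher and 1 to 3 lower and a median of -0.08 (-0.19 to -0.01), or -0.05 without the same library. For BMP and TGF-beta genes, 26 tested, the counts were 0 to 2 and 0 to 2, with 2 and 0 against Vav-Ezh2-WT alone, with the target gene *Id3* at -1.56 and a median of the list of -0.03 (-0.16 to 0.06) that was 0.02 after common-median scaling and 0.06 without Tie2-Ezh2-WT replicate 4. Genes of the Lin28b axis, which mark fetal-type progenitors, had 0 higher and 1 to 3 lower of 13, with 1 lower after either rescaling or against Vav-Ezh2-WT alone, and a median of -0.15 (-0.21 to -0.02), or -0.02 without Vav-Ezh2-KO replicate 9. *Lin28b* and *Igf2bp2*, RNA-binding proteins, differed by -0.35 and -0.33, and by -0.14 and -0.10 against Vav-Ezh2-WT alone.

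Inflammatory genes depended on the cross of the controls. Of 37 tested, 1 to 9 were higher and 0 to 3 lower, with a median of 0.12 (-0.17 to 0.30), or -0.03 without Vav-Ezh2-KO replicate 1. The lower end is the fit with Vav-Ezh2-WT as the only control and the upper end that with Tie2-Ezh2-WT. *Nfkbia*, the inhibitor that NF-kB induces, was at 32.6, 54.9, 45.1, 127 and 156 RPKM in WT and at 164, 191, 163, 109 and 124 RPKM in Vav-Ezh2-KO EMPs. Both Vav-Ezh2-WT libraries were within the range of the knockout, and only the Tie2-Ezh2-WT libraries were low, so the difference of 1.08 was 0.06 within the cross. The immediate early gene *Jun* shared this pattern, at 0.66 and -0.06, whereas *Fosl1* of the same list was at 1.10 and 0.86 with no overlap and under 1 RPKM in all 10 libraries. Immediate early genes as a list, 28 tested, had 1 to 6 higher and 0 to 1 lower. Chemokines and receptors, 26 tested, had 1 to 4 higher and 0 to 3 lower and a median of 0.16 (-0.15 to 0.22), or -0.15 against Vav-Ezh2-WT alone and -0.05 without Tie2-Ezh2-WT replicate 12. *Ccl3*, a macrophage chemokine, differed by 1.09 and 0.48, and *Ccl27a* by 0.93 and 0.63. Genes of MHC class I and the immunoproteasome, 20 tested, had 0 to 3 higher and 0 to 1 lower and a median of 0.08 (0.04 to 0.14), or 0.14 without Vav-Ezh2-KO replicate 28, with *B2m*, the shared light chain, at 249 ± 17.8 and 286 ± 24.3 RPKM (SD, n = 5 each). Interferon-stimulated genes, 33 tested, had 0 to 1 higher and 0 to 2 lower and a median of 0.03 (-0.08 to 0.11), which was -0.01 without Tie2-Ezh2-WT replicate 12.

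All 43 S phase genes and all 54 genes of G2 and mitosis had intervals within 2-fold, with 0 to 1 higher and 0 to 2 lower and with 1 to 7 higher and 0 to 9 lower at an unadjusted p under 0.05. The counts of G2 and mitosis depended on the cross, with 2 higher and 9 lower against Tie2-Ezh2-WT alone and 5 and 0 against Vav-Ezh2-WT alone, and medians of -0.07 and 0.09. Of 24 glycolysis enzymes 0 to 3 were higher and 0 to 2 lower, and 19 were held within 2-fold. For 25 enzymes of the TCA cycle the counts were 0 to 3 and 0 to 4, for 24 genes of fatty acid metabolism 0 to 3 and 0 to 1, and for 25 of cholesterol synthesis 0 to 2 and 0 to 2. Nucleotide synthesis, 30 tested, had 0 to 3 higher and 1 to 5 lower, among them *Dhodh*, the mitochondrial step of pyrimidine synthesis, at 66.7 ± 7.98 and 53.2 ± 6.70 RPKM with no overlap (SD, n = 5 each). Lysosome and autophagy genes, 42 tested, had 0 to 5 higher and 0 to 1 lower, and targets of p53, 38 tested, had 0 to 4 and 0 to 2, with 28 held within 2-fold. Hypoxia targets, 30 tested, had 0 to 4 higher, 0 against Vav-Ezh2-WT alone, and 0 to 2 lower, with 23 held within 2-fold. Their median was 0.14 (-0.03 to 0.20), and it was -0.03 against Vav-Ezh2-WT alone and 0.09 without Tie2-Ezh2-WT replicate 12.

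**Figure D4:**
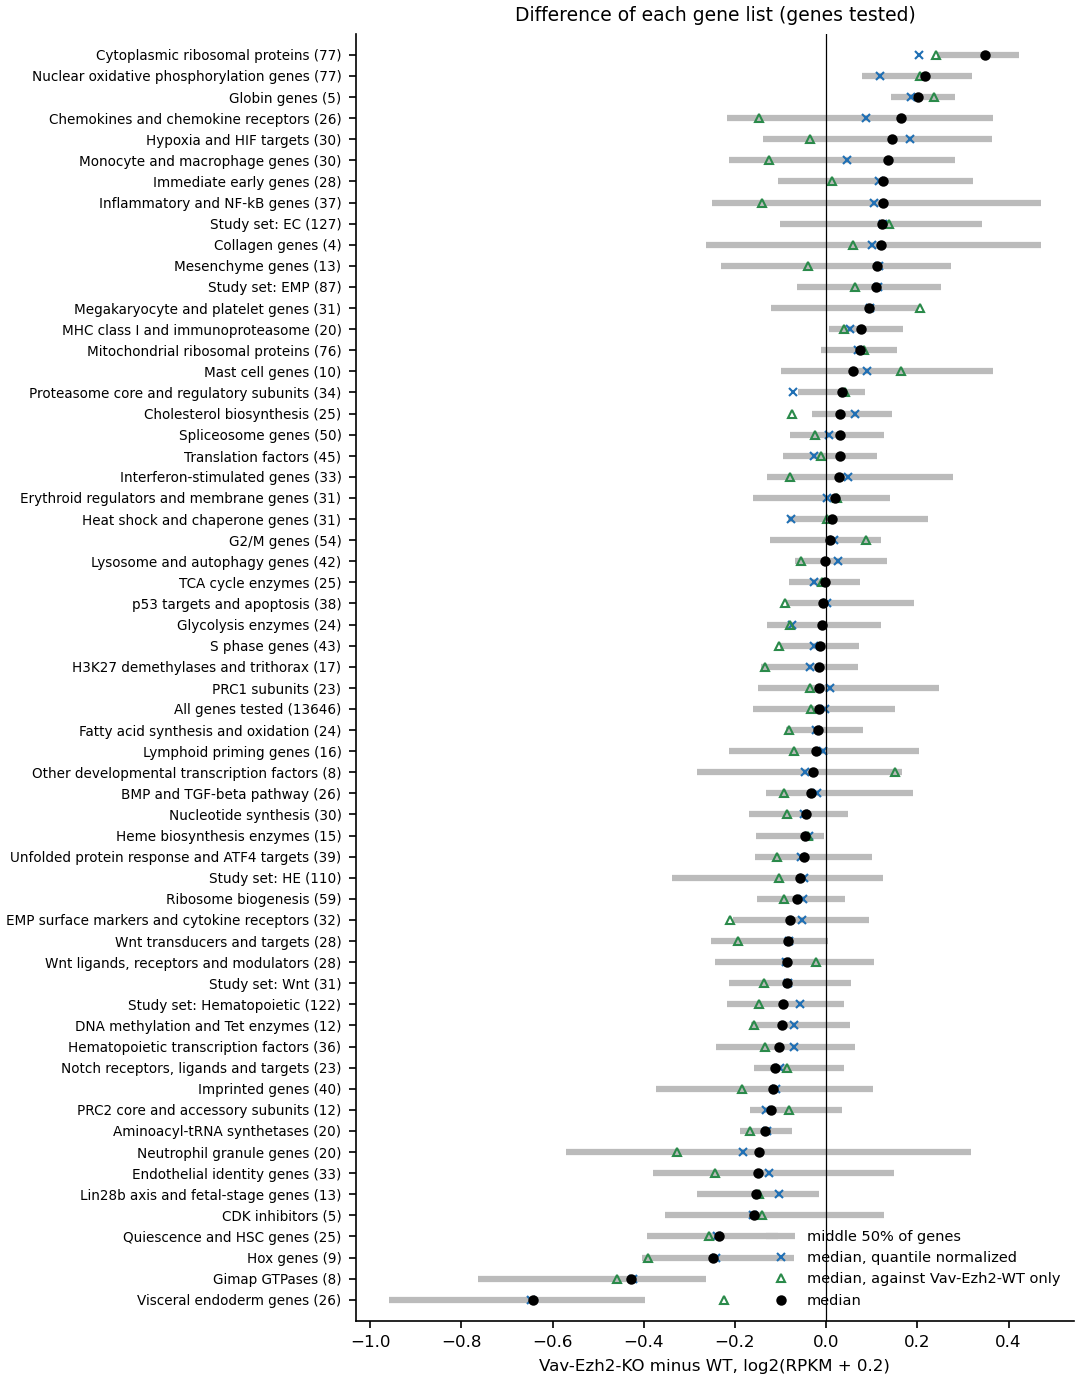
Median Vav-Ezh2-KO minus WT difference of each gene list except sex-linked and transgene-related genes, on the log2(RPKM + 0.2) scale, with the middle 50% of its genes as a bar, and the median after quantile normalization and, over the same genes, against Vav-Ezh2-WT alone. Of the lists drawn, cytoplasmic ribosomal proteins are highest at 0.35 and visceral endoderm genes lowest at -0.64, a value that is -0.10 without 1 WT library.

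The gene sets on which the study compared genotypes gave small medians. Of the endothelial set (EC), 127 genes were tested, 10 were higher and 1 to 4 lower, with a median of 0.12 (0.04 to 0.16), or 0.04 without Tie2-Ezh2-WT replicate 12. The number higher was 5 without Tie2-Ezh2-WT replicate 4 or Vav-Ezh2-KO replicate 1 and 6 without Vav-Ezh2-KO replicate 9. The hemogenic endothelium set (HE), with 110 tested, had 0 to 9 higher and 10 lower and a median of -0.06 (-0.13 to -0.03), or -0.13 without Tie2-Ezh2-WT replicate 12. Against Vav-Ezh2-WT alone 0 were higher and 8 lower. The hematopoietic set, with 122 tested, had 0 to 4 higher and 18 lower, 3 of them without overlap, and a median of -0.09 (-0.15 to -0.03), which was -0.03 without Vav-Ezh2-KO replicate 10. Its summed level was -6.46% relative to WT. Over all genes, 0.806% had every Vav-Ezh2-KO library below every WT library. For the EMP set, 87 tested, 12 were higher and 1 to 3 lower with a median of 0.11 (0.04 to 0.17), or 0.04 without Tie2-Ezh2-WT replicate 12 or Vav-Ezh2-KO replicate 9, and for the Wnt set, 31 tested, the counts were 0 to 2 and 1 to 3 with a median of -0.09 (-0.16 to -0.03). The latter was -0.05 without Vav-Ezh2-WT replicate 6 and -0.13 without Tie2-Ezh2-WT replicate 12. The number lower in the hematopoietic set was 9 after common-median scaling, 11 with the length trend removed and 10 against Vav-Ezh2-WT alone.

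Genes called after the earlier deletion by Tie2-Cre were read in the Vav-Ezh2-KO libraries, with the caution that both comparisons use the same 5 WT libraries. In Tie2-Ezh2-KO EMPs 386 of 14154 genes were called (2.73%), of which 349 were tested in Vav-Ezh2-KO EMPs and 0 were called there. The median log2 difference of these 349 genes was 1.53 in Tie2-Ezh2-KO and 0.25 in Vav-Ezh2-KO EMPs, and the median interval in the latter ran from -0.34 to 0.87. A 2-fold change was outside the Vav-Ezh2-KO interval for 173 of the 349 (49.6%) and a 1.5-fold change for 52. Of the 295 that differed by over 2-fold in Tie2-Ezh2-KO EMPs, 122 were held within 2-fold in Vav-Ezh2-KO EMPs, and for the rest the interval held a 2-fold change, except for *Mir93*, whose interval lay wholly beyond it. Among the 43 genes lower in Tie2-Ezh2-KO EMPs, 32 were held within 2-fold. Whether the 2 deletions differ was not tested.

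The pooled controls come from 2 crosses, which were compared with the same fit. Of the 13100 genes compared between 2 Vav-Ezh2-WT and 3 Tie2-Ezh2-WT libraries, 1168 passed an unadjusted p under 0.05. For 739 of these Vav-Ezh2-WT exceeded Tie2-Ezh2-WT, and for 429 it fell below. After common-median scaling these numbers were 559 and 539. The genes called leaned the other way. As deposited, 20 were called (0.153%), 19 of them lower in Vav-Ezh2-WT. The count was 99 without Tie2-Ezh2-WT replicate 12, 13 without Tie2-Ezh2-WT replicate 4 and 0 without any 1 of the other 3 libraries. None was Y-linked. The platelet gene *Mmrn1* was at 35.4, 30.5 and 33.4 RPKM in Tie2-Ezh2-WT and 13.6 and 13.9 RPKM in Vav-Ezh2-WT libraries, and the knockout libraries lay between 15.5 and 27 RPKM. *Casc4*, a Golgi gene, was at 115, 126 and 129 RPKM and at 66.2 and 69.8 RPKM, with the knockout from 77.7 to 147 RPKM. These 2 genes were picked out after their values were seen. *Nfkbia* was the 1 gene higher in Vav-Ezh2-WT, and it was called against Tie2-Ezh2-WT alone. With either cross as the only control, 2 genes were called in place of 1.

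Sex was not balanced. The Y-linked genes *Ddx3y*, *Eif2s3y*, *Kdm5d* and *Uty* were at 0 in Tie2-Ezh2-WT replicates 4 and 10 and in Vav-Ezh2-KO replicate 28, and *Xist* was at 0.467, 0.593 and 0.330 RPKM there and under 0.04 RPKM in the other 7 libraries. Replicate 28 is the library with the highest level of short genes, and the part of sex in the shifts by family was not tested beyond the fit with Y-linked expression as a covariate.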

How the data were processed

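RNA-seq libraries of sorted EMPs, each from an individual yolk sac, were analysed from the RPKM table deposited by the authors. The authors made cDNA with 16 PCR cycles, sequenced 75 bp single-end reads, aligned them to GRCm38/mm10 with TopHat2 2.0.13, counted reads per RefSeq gene with featureCounts and computed RPKM in R. Members and gene lists were chosen with earlier results of these data known. Reads and exon lengths were recovered from the steps between RPKM values, which can give a fraction of the true length for genes with few reads. Each fit took the genes that exceeded 0.2 RPKM in any of its libraries, tested on log2(RPKM + 0.2) with limma 3.58.1 in R 4.3.3 (lmFit, eBayes with trend), with Benjamini-Hochberg adjustment over all genes tested, a threshold of 0.05 and 95% intervals. Single genes were also given a two-sided exact permutation test over all 252 divisions of the 10 libraries. The code was tested on simulated data. Tables and figures were made with Python 3.11.15, numpy 2.4.6, pandas 2.3.3 and matplotlib 3.10.9. Depth was 10407398 to 41025074 reads on genes.

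Named genes were PRC2 subunits, genes called, the 10 genes of smallest p and the 5 of largest difference in each direction among those with a mean of at least 1 RPKM and no overlap, list members of smallest p or highest level, markers, and sample checks. Alternatives were pseudocounts of 1 and 0.05, no filter or a mean above 1 RPKM, array weights, quantile normalization, eBayes with no trend, library medians set equal, Y-linked expression as a covariate, limma-voom on recovered reads, all 15 libraries in 1 fit, controls of 1 cross only, leaving out each library, and removal of the exon length trend, the last chosen after seeing the data. Other assays of the study were not analysed.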

Additional observations from a re-analysis of the deposited data

Results flagged for a closer look

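Among 374 groups of values, 34 had 1 library far from the others of its group. Chance alone gives about 1 in 20 where groups are independent and not chosen by their values, which does not hold here, since some genes were named for such a library or as sample checks and sums share their genes, so no share is compared with it. All values are in RPKM. Tie2-Ezh2-WT replicate 4 stood apart for *Gm561* at 17 (other libraries of the group 20.5 to 21.1), *Id2* at 9.06 (other libraries of the group 1.53 to 3.33), *Cst7* at 17.3 (other libraries of the group 25.7 to 28.8), *Trf* at 48.9 (other libraries of the group 14 to 23.3), *Afp* at 48.2 (other libraries of the group 0.502 to 1.78), *Apoa1* at 47.6 (other libraries of the group 0.668 to 2.09), *Ttr* at 13.5 (other libraries of the group 0 to 0.616), the sum of visceral endoderm genes at 604 (other libraries of the group 315 to 381). Tie2-Ezh2-WT replicate 10 stood apart for the sum of PRC2 core and accessory subunits at 665 (other libraries of the group 715 to 727). Tie2-Ezh2-WT replicate 12 stood apart for *Cars* at 36.1 (other libraries of the group 31.2 to 32.1), *B2m* at 218 (other libraries of the group higher, up to 260), *Gstk1* at 6.34 (other libraries of the group 3.2 to 3.72), the sum of TCA cycle enzymes at 5014 (other libraries of the group 4492 to 4577), the sum of proteasome core and regulatory subunits at 14534 (other libraries of the group 12473 to 13022). Vav-Ezh2-WT replicate 4 stood apart for *Tmod1* at 7.06 (other libraries of the group 3.31 to 3.98), *Col1a1* at 0.0858 (other libraries of the group 0 to 0.0205), the sum of globin genes at 80.4 (other libraries of the group 136 to 157). Vav-Ezh2-WT replicate 6 stood apart for *Cd34* at 213 (other libraries of the group 134 to 144), *Ms4a6d* at 3.03 (other libraries of the group 4.21 to 4.55), the sum of endothelial identity genes at 499 (other libraries of the group 389 to 417). Vav-Ezh2-KO replicate 1 stood apart for *Nop56* at 440 (other libraries of the group 390 to 400). Vav-Ezh2-KO replicate 9 stood apart for *Fuom* at 7.94 (other libraries of the group 5.89 to 6.39), *Myc* at 147 (other libraries of the group 175 to 180), *Cst7* at 66.7 (other libraries of the group 30.3 to 40.3), *Col1a1* at 0.0231 (other libraries of the group 0 to 0), *Cma1* at 0.353 (other libraries of the group 0 to 0.0551). Vav-Ezh2-KO replicate 10 stood apart for *Jarid2* at 1.27 (other libraries of the group 2.28 to 2.57). Vav-Ezh2-KO replicate 26 stood apart for the sum of Wnt ligands, receptors and modulators at 48.2 (other libraries of the group 34.3 to 38). Vav-Ezh2-KO replicate 28 stood apart for *Gm15421* at 24.4 (other libraries of the group 15.6 to 16.9), *Ddx3y* at 0 (other libraries of the group 9.7 to 12.9), *Xist* at 0.33 (other libraries of the group 0.00606 to 0.0397), *Rpl39* at 852 (other libraries of the group 407 to 523), *Mmrn1* at 15.5 (other libraries of the group 23.8 to 27), the sum of sex-linked genes at 0.444 (other libraries of the group 41.1 to 56.5). Why these libraries stood apart was not tested.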

How the results depend on the processing

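The number of genes called was 1, and it was 0 with limma-voom, 2 with Vav-Ezh2-WT controls only, 2 with Tie2-Ezh2-WT controls only and 1 to 2 with 1 library left out. The 546 genes higher without adjustment were 345 with Vav-Ezh2-WT controls only and 389 to 603 with 1 library left out. The 536 lower were 289 after common-median scaling and 413 to 639 with 1 library left out. The 10959 genes held within 2-fold were 13299 with a pseudocount of 1, 9018 with 0.05, 8856 with limma-voom, 8555 with Vav-Ezh2-WT controls only and 10240 to 10596 with 1 library left out. The 6137 held within 1.5-fold were 10811 with a pseudocount of 1, 5895 with 0.05 and 4600 with Vav-Ezh2-WT controls only.

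The 20 genes called between the control crosses were 0 without a filter, 0 without trend, 38 after common-median scaling, 52 with array weights, 2 with the Y covariate, 31 with limma-voom, 39 with the exon length trend removed and 0 to 99 with 1 library left out. The 386 genes called in Tie2-Ezh2-KO EMPs were 240 above a mean of 1 RPKM, 564 after common-median scaling, 533 with array weights and 262 to 438 with 1 library left out. Removal of the exon length trend was chosen after seeing the data.

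Of 2937 values of 123 named genes over 24 alternatives, 2853 kept their sign and call, 4 gained a call, 1 lost it and 79 changed sign. The cause was not tested. The log2 difference as fitted, then in alternatives with a change of sign, was as follows. *Ezh2* -0.02, then 0.00 (quantile), 0.03 (common median), 0.02 (length trend removed), 0.07 (Tie2-Ezh2-WT only), -0.10 to 0.02 (1 library left out). *Rbbp4* 0.35, then -0.01 (Vav-Ezh2-WT only). *Rbbp7* -0.00, then 0.05 (common median), 0.01 (array weights), 0.03 (length trend removed), 0.01 (Tie2-Ezh2-WT only), -0.04 to 0.04 (1 library left out). *Jarid2* -0.15, then -0.26 to 0.02 (1 library left out). *Aebp2* -0.09, then 0.12 (Vav-Ezh2-WT only), -0.22 to 0.04 (1 library left out). *Mtf2* -0.20, then 0.01 (Vav-Ezh2-WT only). *Phf1* -0.15, then -0.40 to 0.13 (1 library left out). *Phf19* 0.15, then -0.29 (Vav-Ezh2-WT only), -0.12 to 0.34 (1 library left out). *Ddx3y* 1.17, then -0.04 (Y covariate), -1.12 (Vav-Ezh2-WT only). *Eif2s3y* 1.53, then -1.45 (Vav-Ezh2-WT only). *Kdm5d* 0.82, then -0.77 (Vav-Ezh2-WT only). *Uty* 0.82, then -0.14 (Y covariate), -0.06 (limma-voom), -1.12 (Vav-Ezh2-WT only). *Xist* -0.43, then 0.29 (Vav-Ezh2-WT only). *Itga2b* -0.16, then -0.24 to 0.01 (1 library left out). *Fcgr3* 0.06, then -0.01 (Tie2-Ezh2-WT only), -0.09 to 0.16 (1 library left out). *Runx1* -0.03, then 0.02 (quantile), 0.03 (common median), 0.06 (Tie2-Ezh2-WT only), -0.09 to 0.08 (1 library left out). *Hbb-bh1* -0.11, then 0.00 (Y covariate), 0.31 (Vav-Ezh2-WT only), -0.32 to 0.10 (1 library left out). *Pf4* 0.20, then -0.36 (Vav-Ezh2-WT only), -0.43 to 0.67 (1 library left out). *Mpo* -0.03, then 0.03 (common median), 0.01 (length trend removed), 0.14 (Tie2-Ezh2-WT only), -0.13 to 0.06 (1 library left out). *Jun* 0.66, then -0.06 (Vav-Ezh2-WT only). *Kdr* 0.02, then -0.00 (pseudocount 1), -0.21 (Tie2-Ezh2-WT only), -0.13 to 0.20 (1 library left out). *Csf1r* 0.27, then -0.63 (Vav-Ezh2-WT only), -0.36 to 0.54 (1 library left out). *Mmrn1* 0.01, then -0.02 (limma-voom), -0.49 (Tie2-Ezh2-WT only), -0.18 to 0.16 (1 library left out). *Casc4* 0.10, then -0.24 (Tie2-Ezh2-WT only), -0.03 to 0.21 (1 library left out).

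No paired analysis was possible because Vav-Ezh2-KO and WT libraries share only replicate number 10, and the labels assign no library to a litter or experiment.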
